A study of Mus musculus with 11 samples.

Results

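The baseline described here is that of 5 MC38 tumors from mice given PBS, named PBS 1 to PBS 5 after the numbers in their titles, out of 11 tumors in the series. They were chosen by the treatment label alone, and all 758 genes of the normalized table were used. MC38 is a transplantable mouse colon carcinoma line. In these mice, which were 6 to 8 weeks old and C57BL/6 by the methods of the study, 100000 to 200000 cells were placed under the skin of the flank. Treatment began after randomization 5 days later, with PBS for the 5 tumors described and, for the other 6, 3 µg of hetIL-15 per intraperitoneal injection, 3 times a week for 4 injections. hetIL-15 is the heterodimer of interleukin 15 and its receptor alpha chain, made in HEK293 cells. RNA came from whole tumors excised 3 h after the last injection, so tumor cells, stroma and infiltrating leukocytes were measured together, and fewer cells of a type cannot be told apart from less RNA per cell. The labels name no mouse for a tumor, but the study gives as many mice as tumors in each group, so each tumor was taken to come from its own mouse. The hetIL-15 tumors were used only as a second set in which spread and gene pairs could be tested.

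Expression was measured by nCounter, on a cancer immunology panel that counts transcripts by hybridization to a single probe pair per gene, so transcript length does not enter the value. Levels are the deposited log2 values, normalized to a shared distribution across tumors (quantile normalization), and a difference of 1 is a 2-fold difference in signal. Probes can capture their transcripts with unequal efficiency, which was not measured, so an order of genes is an order of probe signals. The normalization also gave the top ranks fixed values, and 3 genes (Spp1, Rpl19 and Ppia) had the same value in all 5 tumors for that reason. At the other end the values were coarse: each tumor had 6 to 12 distinct values at or under a mean level of 5.20, below which the lowest 25% of genes (190 genes) lay. The term near the floor is used for those genes, and the top 10% are the 76 genes whose means were 11.40 or more. The median gene had a mean of 7.65, and single values ran between 1.21 and 16.63.

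A transplanted carcinoma is infiltrated by myeloid cells, lymphocytes, vessels and fibroblasts of the host, and these cells and the tumor cells signal to each other through chemokines, cytokines and checkpoint ligands. Interferons raise antigen presentation and the chemokines that draw T cells and NK cells. MHC class I displays peptides of nearly any cell to CD8+ T cells, and MHC class II, carried mainly by macrophages, dendritic cells and B cells, displays peptides to CD4+ T cells.

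The strongest signals included those of matrix and antigen presentation genes and of 2 chemokines. Spp1, which encodes the secreted phosphoprotein osteopontin, had the highest value of all genes (16.63 in each tumor) and alone held 10.1% of the summed signal off the log scale. The 10 highest genes held 34.3% to 34.8% of it, and the 190 genes near the floor together 0.364% to 0.381%. After Spp1 and the housekeeping genes Rpl19 and Ppia came Vim, the intermediate filament vimentin (14.72 ± 0.03, SD, n = 5), Lgals3, which encodes galectin-3 (14.65 ± 0.09), and the class I heavy chain gene H2-D1 (14.64 ± 0.11). Fibronectin (Fn1, 14.26 ± 0.10), the interferon-induced tetherin gene Bst2 (14.22 ± 0.14) and the monocyte chemokine Ccl2 (13.83 ± 0.29) followed. Cxcl10, an interferon-induced ligand of Cxcr3, averaged 13.82 ± 0.11, and Mif, macrophage migration inhibitory factor, 13.67 ± 0.07. The 20 highest genes also held the transferrin receptor Tfrc (13.62 ± 0.13), the collagen gene Col3a1 (13.56 ± 0.43), the tetraspanin Cd63 (13.50 ± 0.07), the integrin Itgb1 (13.39 ± 0.06) and the class I heavy chain gene H2-K1 (13.18 ± 0.17), and 3 of the 20 were panel housekeeping genes. The gene after them was Il1rl1, the receptor of IL-33, at 13.07, 12.98, 12.79, 13.50 and 12.73 in PBS 1 to PBS 5.

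The 3 lowest means were those of the NK cell receptor genes Klra27 (2.52 ± 1.37) and Klra15 (2.64 ± 1.05) and of Elane, the neutrophil elastase gene (2.75 ± 0.93). The chemokine receptor gene Ccr4 (2.99 ± 0.74) and the cytokine gene Il3 (3.00 ± 0.75) were also among the 10 lowest. None of these values says that a transcript was absent, since the depth of each assay is unknown.

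None of the 4 pan-leukocyte genes was near the floor, whereas 3 of the epithelial adhesion genes were. Ptprc, the pan-leukocyte gene for CD45, had 9.51, 9.71, 9.86, 8.91 and 9.13 in PBS 1 to PBS 5. Epcam, an epithelial adhesion gene, had 4.58, 4.76, 5.19, 5.22 and 5.27 and lay near the floor. The other epithelial adhesion genes Cdh1 (E-cadherin, 4.61 ± 0.54) and Ceacam1 (4.72 ± 0.73) were near the floor too, and the mucin Muc1 was just above it (5.36 ± 0.31). Of the 9 epithelial genes measured, 3 were near the floor and 1, the tetraspanin Cd9 (11.67 ± 0.24), was in the top 10%, while the integrin genes Itga6 and Itgb4, which epithelia carry, averaged 9.16 ± 0.27 and 8.59 ± 0.19. Above the median gene were 4 of the 9. Keratins were not among the genes analysed, so the label of a colon carcinoma was looked at on these 9 genes only. Since 3 of 9 is near the share of all genes, the count cannot test that label.

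Among the lists of single leukocyte types, macrophage and monocyte genes had the highest median. Of 26 measured, 17 were above the median gene, 3 were in the top 10% and 2 were near the floor, with a median level of 8.91, against 7.65 over all genes. The cathepsin gene Ctss averaged 12.51 ± 0.32, the lysozyme gene Lyz2 11.78 ± 0.41 and the complement gene C1qb 11.40 ± 0.36. Cd68, a macrophage lysosomal glycoprotein, averaged 10.35 ± 0.16, Emr1, which encodes F4/80, 9.96 ± 0.30, and Mrc1, the mannose receptor, 9.14 ± 0.19. The scavenger receptor genes Cd163 (6.72 ± 0.77) and Marco (5.26 ± 0.99) were lower. Neutrophil genes were lower as a list: 3 of 11 were above the median gene and 5 near the floor. Their highest member was Fcgr4 (10.34 ± 0.48), an Fc receptor gene that monocytes carry as well, and the granule genes Mpo, Ltf, Camp and Elane, which are made as neutrophils mature, were near the floor. Of 5 mast cell genes, 3 were near the floor and none was above the median gene.

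Lymphocyte markers were mostly below the median gene. Of 14 T cell genes, 8 were near the floor and 1, Thy1, which fibroblasts and endothelium can carry too, was above the median gene (8.70 ± 0.14). The T cell receptor complex genes Cd3g (6.51 ± 0.46), Cd3d (6.41 ± 0.49) and Cd3e (5.29 ± 0.59) were above the floor. Cd8a had 5.19, 5.73, 5.29, 4.17 and 3.78 in PBS 1 to PBS 5, and Cd8b1 had 4.41, 5.05, 5.02, 4.17 and 4.17, so that both CD8 chains averaged near the floor and were lowest in PBS 4 and PBS 5. Cd4 (4.19 ± 1.36) and the regulatory T cell factor Foxp3 (4.28 ± 0.96) were near the floor. Among 13 B cell genes 11 were near the floor, including Ms4a1 (CD20, 3.95 ± 0.97), and the 2 above it were Btk (7.02 ± 0.40) and Blnk (6.45 ± 0.24), signaling genes that myeloid cells also carry. Of 25 NK cell genes, 11 were near the floor and 5 were above the median gene: Klra2 (9.01 ± 0.30), Klra4 (8.51 ± 0.15), Cd244 (8.25 ± 0.28), Il2rb (8.07 ± 0.40) and Klrk1 (7.70 ± 0.27). Near-identical Klra genes can share probe signal, so single Klra values are uncertain. Which cells carried the listed NK cell genes was not tested. Klra2 and Klrc1 stood in the same order over the 5 tumors as the macrophage genes Csf1r, C1qb and Lyz2. The NK receptor gene Ncr1 averaged 5.99 ± 0.21, and the cytotoxic genes Gzmb, Gzma and Prf1 averaged 7.08 ± 0.30, 6.63 ± 0.64 and 5.78 ± 0.75.

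Fibroblast and matrix genes were mostly above the median gene, above which 379 of all 758 genes lie by definition. Among 15 endothelial genes 9 were above it, which is near that share, and 1 was near the floor. They were led by Cd34 (12.50 ± 0.14), Mcam (9.76 ± 0.17) and Vcam1 (9.68 ± 0.12), with Pecam1 (CD31) at 9.25 ± 0.16 and Cdh5 (VE-cadherin) at 8.0 ± 0.10. Among 14 fibroblast and matrix genes 11 were above the median gene, 4 were in the top 10% and none was near the floor. Col1a1 averaged 12.96 ± 0.33, whereas the fibroblast surface genes Pdgfrb (7.38 ± 0.08) and Fap (6.94 ± 0.44) were below the median gene.

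**Figure D1:**
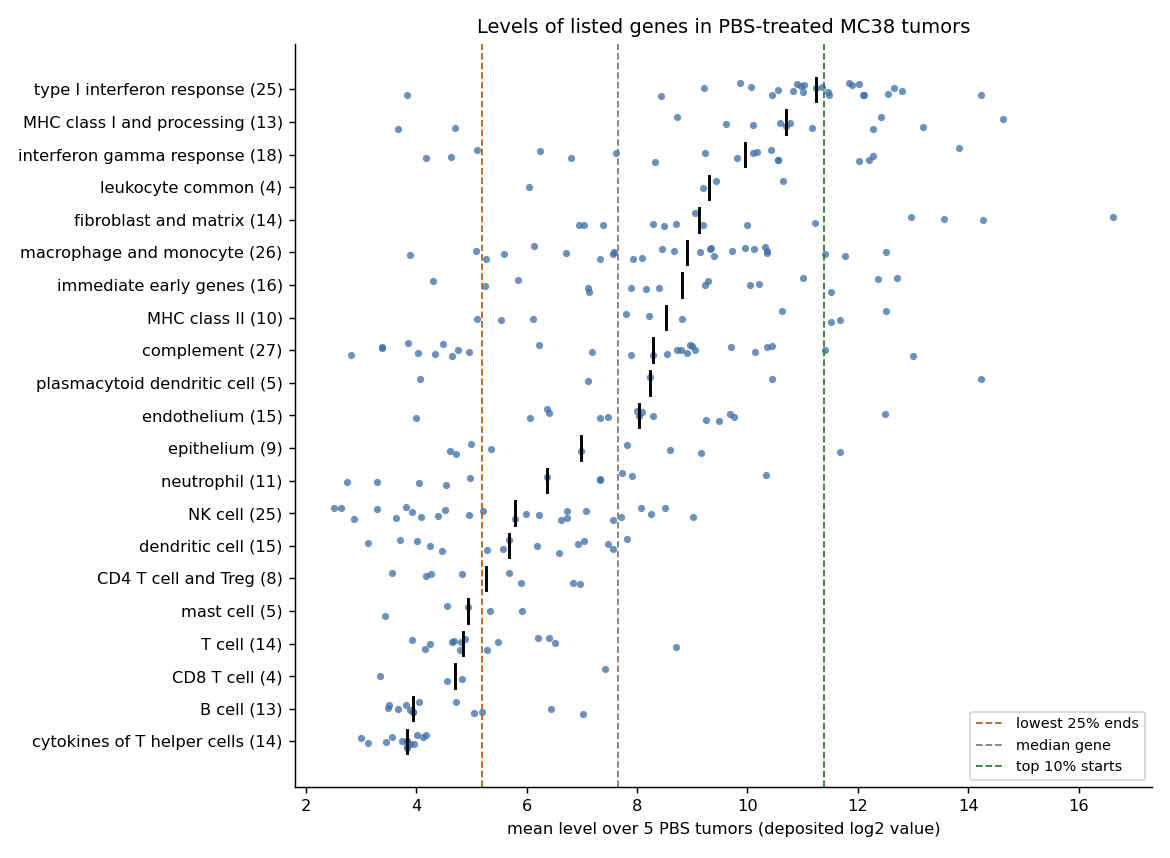
Mean deposited log2 level over the 5 PBS tumors (horizontal axis) of each gene in 21 lists (rows, with the number of genes measured in brackets). Dots are genes, black bars the list medians, and dashed lines the limit of the lowest 25% (5.20), the median gene (7.65) and the start of the top 10% (11.40). Type I interferon response genes had the highest median (11.24) and cytokines of T helper cells the lowest (3.84).

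Interferon-induced genes were mostly above the median gene, while Ifnb1, Ifna1 and Ifng were near the floor. Of 25 genes of the type I interferon response, 24 were above the median gene, 11 were in the top 10% and 1, Mx1 (3.83 ± 0.70), was near the floor, with a list median of 11.24. The ubiquitin-like modifier Isg15 averaged 12.11 ± 0.16, the RNA-binding Ifit3 12.08 ± 0.20 and the RNA sensor Ddx58 11.83 ± 0.14. Ifnb1 averaged 4.66 ± 0.76 and Ifna1 3.79 ± 0.54, and their shared receptor chain Ifnar1 9.88 ± 0.13. The list of interferon gamma response genes had a median of 9.96, with 12 of 18 above the median gene and 3 near the floor. Ifng itself had 4.41, 4.17, 4.46, 4.58 and 3.23 in PBS 1 to PBS 5, so no tumor stood clear of the floor, while the transcription factor Irf1 averaged 12.20 ± 0.11 and the receptor gene Ifngr1 9.81 ± 0.20. Of the class I presentation genes, 11 of 13 were above the median gene, among them the peptide transporter Tap1 (12.27 ± 0.09) and the immunoproteasome subunit Psmb8 (12.41 ± 0.07). All 14 cytokines of T helper cells were near the floor, from Ifng (4.17 ± 0.55) and Il2 (4.13 ± 0.75) down to Il3.

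A ligand acts where its receptor is also present, and 104 of 119 listed ligand and receptor pairs had both genes measured. In 22 pairs both genes were above the median gene, in 45 pairs 1 was, and in 37 neither was, while in 8 pairs both were near the floor. Since 379 of 758 genes lie above the median gene by definition, unrelated genes paired at random would fill each of these groups too. The counts are therefore a description. These are transcript levels of the whole tumor and show neither protein nor which cell carried it.

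Among 29 chemokine pairs, 6 had both genes above the median gene, and 4 of those shared the receptor gene Ccr2. Ccl2 had 13.82, 14.19, 13.82, 13.93 and 13.39 in PBS 1 to PBS 5, and Ccr2, the receptor of inflammatory monocytes, had 10.09, 10.30, 10.43, 9.84 and 9.94. The other Ccr2 ligands Ccl7 (10.58 ± 0.11), Ccl8 (10.53 ± 1.01) and Ccl12 (9.50 ± 0.31) were above the median gene as well. Cxcl12 with Cxcr4 (9.05 ± 0.68 and 7.78 ± 0.31) had both genes above it too. In 8 chemokine pairs only the ligand was above the median gene. The Cxcr3 ligands were the clearest case, with Cxcl10 at 13.93, 13.72, 13.72, 13.82 and 13.93 in PBS 1 to PBS 5 and Cxcl9 at 10.71, 11.53, 10.87, 9.65 and 9.98, whereas Cxcr3, the receptor of activated T cells and NK cells, averaged 5.53 ± 0.45. Cxcl16 (10.09 ± 0.20) stood likewise over its receptor Cxcr6 (6.03 ± 0.40), and the neutrophil chemokine Cxcl1 (8.71 ± 0.48) over Cxcr2 (4.98 ± 0.86). In the lymphoid homing pairs both sides were below the median gene, with Cxcl13 at 4.94 ± 0.71 and Cxcr5 at 3.04 ± 0.71, and Ccl19 at 3.67 ± 1.32 with Ccr7 at 6.59 ± 0.33.

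Checkpoint and costimulation pairs leaned to the ligand. Of 14 pairs, 9 had 1 gene above the median gene, and in each of the 9 it was the ligand. These 9 are not distinct ligands: Pvr was counted with Tigit, Cd96 and CD226, and Cd86 with Ctla4 and Cd28. Cd86 (7.77) and Icosl (7.66) were also barely above the median gene (7.65). Cd274, the gene for PD-L1, had 10.22, 10.35, 10.21, 10.38 and 9.69 in PBS 1 to PBS 5, and its receptor gene Pdcd1 (PD-1) had 5.34, 5.63, 5.02, 5.43 and 3.78, so that PBS 5 was lowest for both. Pvr (CD155), a ligand of Tigit, Cd96 and CD226, averaged 9.62 ± 0.28, and those receptors 5.30 ± 0.56, 4.18 ± 0.54 and 5.24 ± 0.70. The pair with both genes above the median gene was galectin-9 (12.06 ± 0.08) with Havcr2 (TIM-3, 8.15 ± 0.42). Ctla4 averaged 5.89 ± 0.54 and its ligands Cd86 and Cd80 7.77 ± 0.15 and 6.55 ± 0.28.

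In the TNF superfamily the lean was to the receptor. Of 16 pairs, 6 had 1 gene above the median gene, and in each of the 6 it was the receptor, with Tnfrsf1a counted for both Tnf and Lta. Tnfrsf1a (10.41 ± 0.11) stood over Tnf (5.94 ± 0.19), the lymphotoxin receptor Ltbr (9.62 ± 0.18) over Ltb (5.38 ± 0.47), and Tnfrsf12a, the receptor of TWEAK (11.65 ± 0.13), over its ligand Tnfsf12 (7.25 ± 0.31). The death ligand Tnfsf10 (TRAIL, 7.86 ± 0.19) and its receptor Tnfrsf10b (8.73 ± 0.06) were both above the median gene.

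Of 32 cytokine pairs, 7 had both genes above the median gene and 13 only the receptor. Csf1, the growth factor of macrophages, had 11.29, 10.78, 11.15, 11.51 and 11.39 in PBS 1 to PBS 5, and its receptor gene Csf1r 9.46, 9.84, 9.72, 8.70 and 9.27. PBS 4 was thus highest for the ligand and lowest for the receptor, and PBS 2 the reverse. Il34, the second Csf1r ligand, averaged 9.34 ± 0.18. IL33 (10.43 ± 0.56) met Il1rl1 (13.01 ± 0.31), Il1b (8.15 ± 0.39) met Il1r1 (8.52 ± 0.20), and Tgfb1 (11.23 ± 0.07) met Tgfbr1 (9.76 ± 0.17) and Tgfbr2 (9.52 ± 0.12). Vegfa, the vessel growth factor, had 10.64, 10.57, 10.73, 11.12 and 11.15, and its receptor gene Kdr 8.0, 7.77, 7.88, 8.17 and 8.34, both highest in PBS 5 and lowest in PBS 2. The largest gap toward the receptor was that of Il13ra1 (11.43 ± 0.11) over Il13 (4.01 ± 0.51). Il15, the cytokine given in the other arm, averaged 7.33 ± 0.24, its receptor gene Il15ra 7.78 ± 0.39 and the shared signaling chain Il2rb 8.07 ± 0.40. Among 13 adhesion and complement pairs, 7 had both genes above the median gene, including Fn1 with Itga5 (9.62 ± 0.16), C3 (9.05 ± 0.67) with C3ar1 (10.44 ± 0.10) and Mif with Cd74 (11.67 ± 0.93). Spp1 stood over the receptor genes listed for it, Cd44 (6.17 ± 0.67) and Itgb3 (5.83 ± 0.47), which were below the median gene. No other receptor gene was paired with it.

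**Figure D2:**
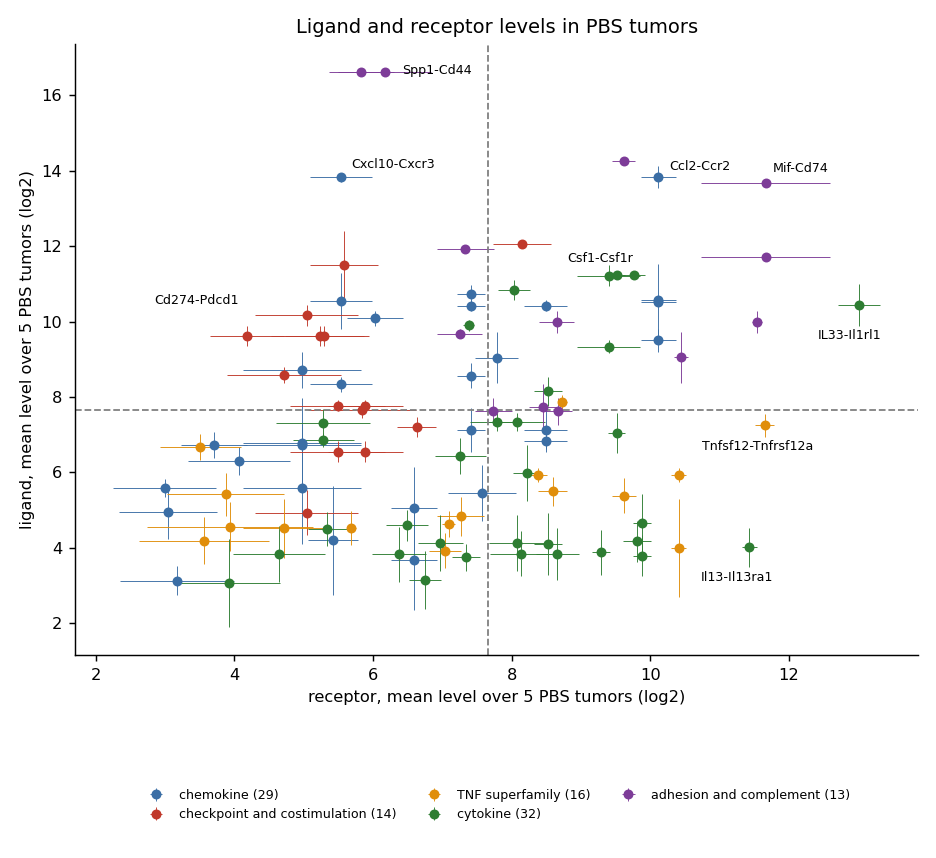
Mean deposited log2 level of the receptor (horizontal axis) and the ligand (vertical axis) of 104 pairs over the 5 PBS tumors, with SD bars and the number of pairs per family in brackets. Dashed lines mark the median gene (7.65). Pairs at the upper right (22) have both genes above it, 9 of 14 checkpoint pairs lie at the upper left with only the ligand above it, and 9 of 16 TNF superfamily pairs have neither gene above it and 6 only the receptor.

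The spread between tumors depended on the level. The SD over the 5 tumors had a median of 0.31 over all genes, 0.69 near the floor, 0.26 between the limits and 0.13 in the top 10%. Of 36 genes with an SD of 1 or more, 30 were near the floor, where 1 step of the coarse scale weighs most, and the other 6 were Serpinb2, Cxcl2, Cxcl3, Cxcl14, Nlrp3 and Ccl8. The highest tumor was at least 2-fold above the lowest in 274 genes, of which 155 were near the floor and 5 in the top 10%.

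Among genes whose mean was above the floor, the most variable encode chemokines, MHC class II chains and myeloid proteins. Serpinb2, which encodes plasminogen activator inhibitor 2, had 6.16, 4.17, 5.44, 6.32 and 8.72 in PBS 1 to PBS 5, a 23.3-fold range with PBS 5 at the top and PBS 2 at the bottom. The neutrophil chemokine genes Cxcl2 and Cxcl3 had 6.43, 3.80, 4.15, 6.66 and 6.87, and 7.33, 5.58, 5.19, 8.01 and 7.51. PBS 2 and PBS 3 were thus low, and PBS 1, PBS 4 and PBS 5 high, for both genes, with ranges of 8.37-fold and 7.07-fold. The lowest values of Serpinb2 (4.17), Cxcl2 (3.80) and Cxcl3 (5.19) lay at the level of genes near the floor, where values are coarse. The sizes of their fold ranges are therefore uncertain. Cxcl14, a chemokine of epithelial and stromal cells, had 9.29, 9.17, 9.97, 7.52 and 7.66, and Ccl8 had 10.60, 11.23, 11.59, 8.99 and 10.22, so that PBS 3 was highest and PBS 4 lowest for both. The inflammasome gene Nlrp3 had 5.75, 5.55, 5.85, 6.66 and 3.78, with PBS 5 below the others. Its value in PBS 5 lay in the coarse range as well. Il6, an inflammatory cytokine, had 5.63, 5.34, 5.44, 7.0 and 6.54, high in PBS 4 and PBS 5. At the other end, apart from the 3 genes whose values were fixed by the normalization, the smallest SDs above the floor were those of the kinase Prkcd (10.69 ± 0.03), Vim, the transcription factor Stat3 (11.19 ± 0.04), the mitotic gene Birc5 (9.61 ± 0.04) and the adhesion gene Ctnnb1 (12.81 ± 0.04).

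**Figure D3:**
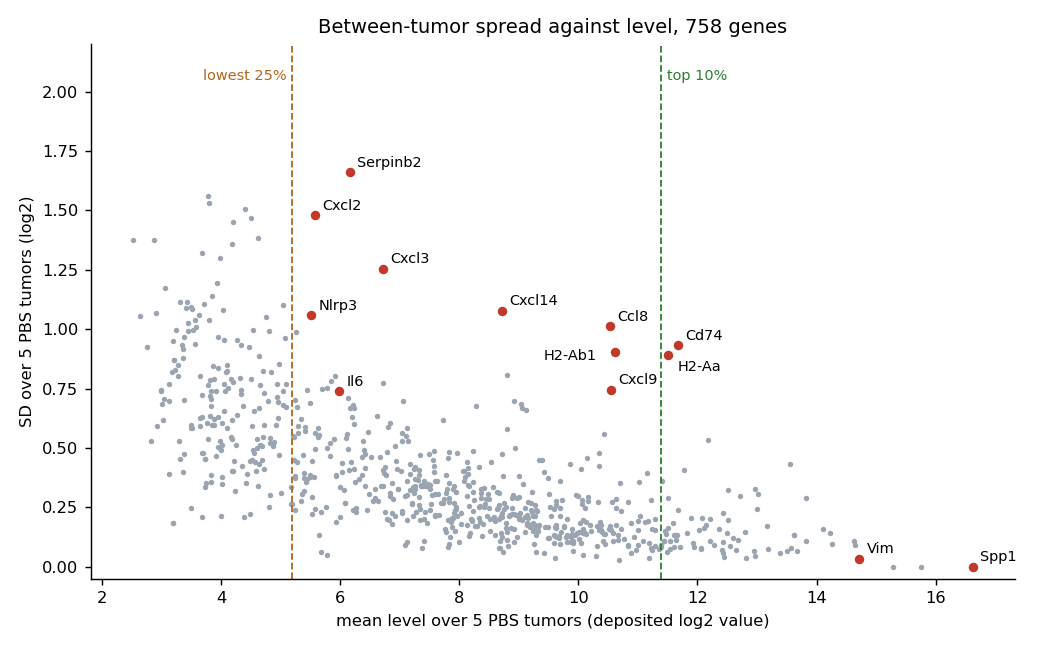
SD over the 5 PBS tumors (vertical axis, log2) against the mean deposited log2 level (horizontal axis) of 758 genes, with dashed lines at the limits of the lowest 25% and the top 10%. Named genes are in red. The SD was largest near the floor (median 0.69) and smallest in the top 10% (median 0.13), and the class II genes and Ccl8 stand above the other genes of their level.

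Single tumors stood apart in different genes. Among genes above the floor, the number at least 2-fold above or below the median of the other 4 tumors was 1 and 5 in PBS 1, 8 and 7 in PBS 2, 8 and 5 in PBS 3, 8 and 20 in PBS 4, and 8 and 12 in PBS 5. The genes above in PBS 2 included the class II genes Cd74, H2-Eb1, H2-Aa, H2-Ab1 and H2-Dma with Cxcl9, and those below in PBS 4 included Ccl8, Marco, Cxcl14, Cd163, Mertk, C3 and Cxcl12. With 5 tumors no correlation was computed. Co-variation is described instead by the tumor in which a gene was alone highest or alone lowest. Over all 758 genes, the shares alone highest in PBS 1 to PBS 5 were 11.9%, 21.0%, 13.1%, 24.9% and 22.2%, and the shares alone lowest were 11.7%, 24.7%, 17.4%, 21.5% and 19.3%. Members of a list were measured in the same libraries under 1 normalization and are not independent.

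MHC class II genes varied together. Cd74, the invariant chain, had 11.52, 12.95, 12.24, 10.65 and 10.99 in PBS 1 to PBS 5. The alpha and beta chain genes H2-Aa and H2-Ab1 had 11.40, 12.68, 12.13, 10.57 and 10.77, and 10.44, 11.73, 11.37, 9.69 and 9.88. H2-Eb1 had 8.39, 9.97, 9.30, 8.01 and 8.36, and Ciita, the transactivator of these genes, 4.92, 5.92, 5.85, 4.17 and 4.62. In all 5 genes the tumors stood in the same order, PBS 2 highest, then PBS 3, PBS 1, PBS 5 and PBS 4. Of 10 class II genes, 9 were alone highest in PBS 2 (21.0% of all genes), 8 were alone lowest in PBS 4 (21.5% of all genes) and 8 had that order, which 27 of 758 genes (3.56%) had. The order was picked after the values were seen, so these counts are a description. The 2 exceptions were H2-Ob, a chain of the class II editing regulator that B cells carry, with 5.19, 6.52, 6.34, 6.02 and 6.54, highest in PBS 5 and lowest in PBS 1, and the peptide editing gene H2-DMb1, with 7.51, 8.29, 7.94, 7.73 and 7.51, highest in PBS 2 and lowest in PBS 5, with PBS 1 barely above it. Other genes in the same order included Cxcl9, Cxcl12, Csf1r, C1qb, Lyz2, Fcer1g and Fcgr3, and also Vwf, Ifnar1, Il1r1 and Klrc1. Xcr1, the receptor of cross-presenting dendritic cells, had that order too. Xcr1 (mean 3.71) and Ciita (mean 5.10) were near the floor, however, where the values are coarse and an order is less certain. The range between the highest and the lowest tumor was 4.90-fold for Cd74, 4.32-fold for H2-Aa and 4.13-fold for H2-Ab1.

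The promoters of class II genes are known for a Y box, the CCAAT motif (ATTGG on the other strand) bound by NF-Y, beside the elements through which Ciita acts. To show it, the 120 bases before the annotated start of H2-Aa (chr17:34287824-34287943, minus strand) and of H2-Eb1 (chr17:34305747-34305866, plus strand) are given from RefSeq, build GRCm38.p6, 5′ to 3′, with CCAAT or ATTGG in capitals.
H2-Aa: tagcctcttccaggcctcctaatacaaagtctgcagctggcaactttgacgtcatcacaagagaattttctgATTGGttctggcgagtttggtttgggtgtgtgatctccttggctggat
H2-Eb1: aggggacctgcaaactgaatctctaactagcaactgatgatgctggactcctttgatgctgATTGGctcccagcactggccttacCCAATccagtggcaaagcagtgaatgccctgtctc
H2-Aa holds the motif once and H2-Eb1 2 times, and 5 of the 7 class II list genes with a promoter in the table hold it in this window, as do 21.3% of 32851 mouse promoters. A match of letters is a description and not a bound site.

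Macrophage and complement genes were lowest in PBS 4. Of 26 macrophage and monocyte genes, 18 were alone lowest there, against 21.5% of all genes, and the list averaged 0.06, 0.15, 0.18 and -0.38 log2 units from its 5-tumor mean in PBS 1 to PBS 4, with PBS 5 at the mean. Of 27 complement genes, which share C1qa and C1qb with that list, 17 were alone lowest in PBS 4. C1qa had 10.25, 10.74, 10.81, 9.79 and 10.18, and Mertk, a receptor for uptake of dying cells, 6.77, 6.22, 6.47, 4.93 and 6.31. Marco had 5.34, 5.05, 5.73, 3.75 and 6.43, so that it was lowest in PBS 4 too but highest in PBS 5. The 4 pan-leukocyte genes averaged -0.25 in PBS 4, where 2 of them were alone lowest, including Ptprc (8.91). Of the others, 1 was alone lowest in PBS 2 and 1 in PBS 5. The part of leukocyte content in the macrophage and class II differences was not tested. The fibroblast and matrix list averaged -0.20 in PBS 4 and the endothelial list -0.02.

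Genes of NK cells, class I presentation and the interferon gamma response were often highest in PBS 2. This held for 12 of 25 NK cell genes, 8 of 13 class I genes and 9 of 18 interferon gamma response genes, against 21.0% of all genes, and 11 of the NK cell genes were alone lowest in PBS 5 (19.3% of all genes). Of the 12 NK cell genes, 9 were above the floor. The class I and interferon gamma lists are not separate, since both hold Tap1. The median SD was 0.14 in the class I list and 0.24 in the interferon gamma list, against 0.66 in the class II list. In the NK cell list it was 0.59, and that list averaged 0.13 in PBS 2 and 0.10 in PBS 4. The CD8 T cell list of 4 genes averaged 0.55 in PBS 2 and -0.65 in PBS 4, but 3 of its genes were near the floor.

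The alarmin S100a8 and the neutrophil chemokine receptor Cxcr2 had another order. S100a8, made by neutrophils and monocytes, had 8.35, 7.36, 7.06, 8.43 and 7.46 in PBS 1 to PBS 5, and Cxcr2, near the floor on average, 4.68, 4.46, 4.15, 6.32 and 5.27. Both were highest in PBS 4 and lowest in PBS 3, while the neutrophil list as a whole averaged between -0.12 (PBS 2) and 0.16 (PBS 5).

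**Figure D4:**
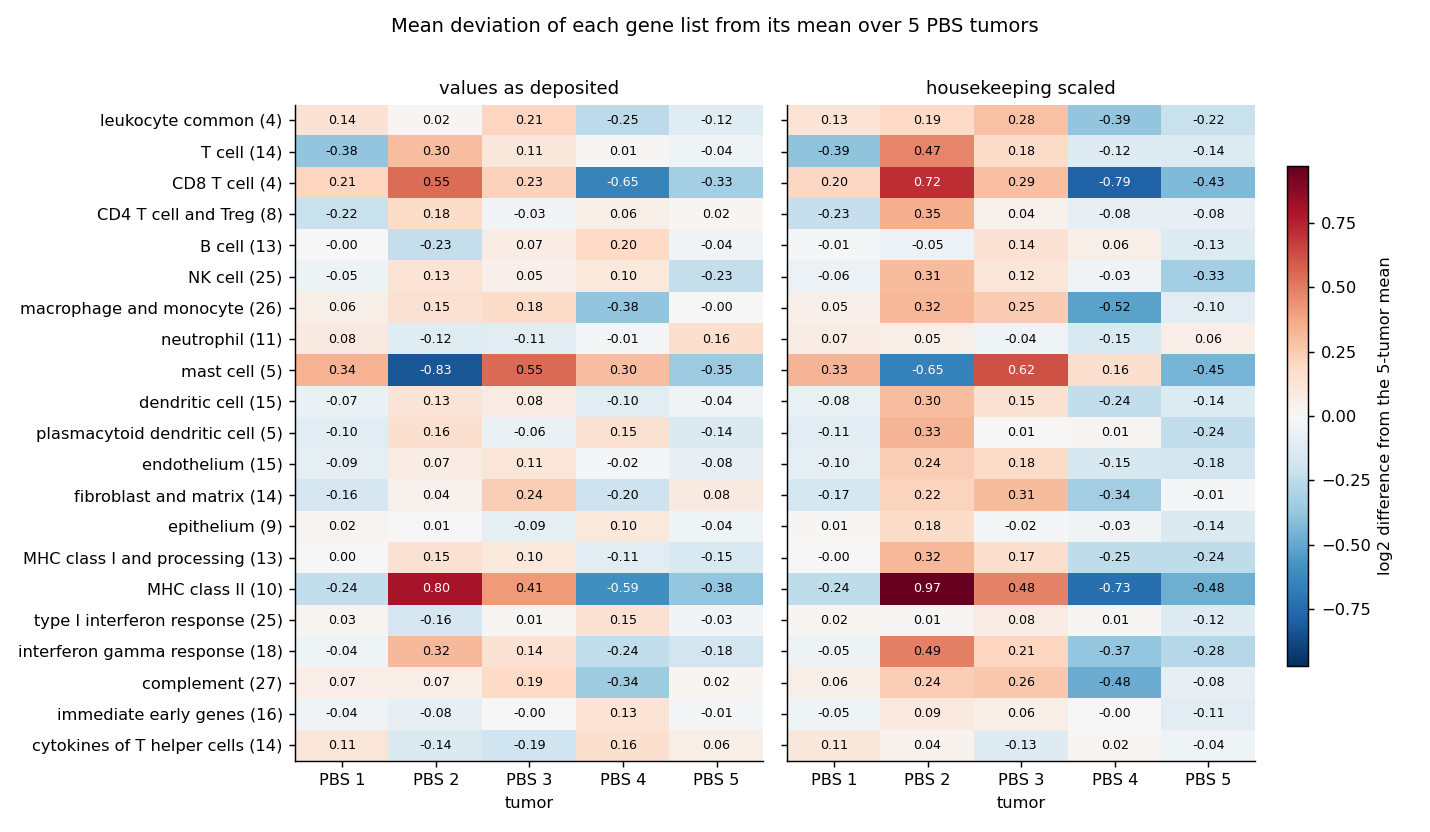
Mean log2 difference of each gene list from its own mean over the 5 PBS tumors, for PBS 1 to PBS 5 (columns), as deposited (left) and after shifting each tumor to the same housekeeping mean (right), with the number of genes in brackets. As deposited, the class II list averaged 0.80 in PBS 2 and -0.59 in PBS 4, and the macrophage list -0.38 in PBS 4.

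Type I interferon response genes went the other way with small differences. Isg15 had 12.17, 11.86, 12.04, 12.29 and 12.17 in PBS 1 to PBS 5, and Ifit1, an RNA-binding antiviral protein gene, 10.81, 10.87, 10.89, 10.97 and 10.90. Of 25 genes, 13 were alone highest in PBS 4 (24.9% of all genes) and 14 alone lowest in PBS 2 (24.7% of all genes), and the list averaged 0.03, -0.16, 0.01, 0.15 and -0.03 in PBS 1 to PBS 5. The housekeeping genes moved the same way: 14 of 20 were alone lowest in PBS 2, and their mean was 10.92, 10.73, 10.84, 11.04 and 11.01. With the tumors shifted to an equal housekeeping mean, 4 type I interferon genes were alone highest in PBS 4, beside 15% of all genes, and 5 alone lowest in PBS 2, beside 12.8% of all genes, and the list averaged 0.01 in both tumors. The direction of the interferon list over these tumors therefore depended on the scaling, whereas 10 of 10 class II genes were then alone highest in PBS 2, beside 39.2% of all genes, and 21 of 26 macrophage genes alone lowest in PBS 4, beside 34.0% of all genes.

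Interferon-stimulated genes carry a response element in their promoters (written here as GAAANNGAAA, or TTTCNNTTTC on the other strand) that is bound by interferon regulatory factors. The 120 bases before the start of Isg15 (chr4:156200819-156200938, minus strand) and Ifit1 (chr19:34640769-34640888, plus strand) are given in the same way, with the motif in capitals, because both genes were above the median gene in all 5 tumors.
Isg15: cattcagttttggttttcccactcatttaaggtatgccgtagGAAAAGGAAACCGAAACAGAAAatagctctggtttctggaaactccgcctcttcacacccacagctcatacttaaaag
Ifit1: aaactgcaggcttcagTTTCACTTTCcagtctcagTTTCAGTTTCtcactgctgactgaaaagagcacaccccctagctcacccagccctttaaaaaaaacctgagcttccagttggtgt
Isg15 holds 3 overlapping copies and Ifit1 2, and 5 of the 18 list genes with a promoter in the table hold the motif in this window, against 1.22% of all 32851 promoters.

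**Figure D5:**
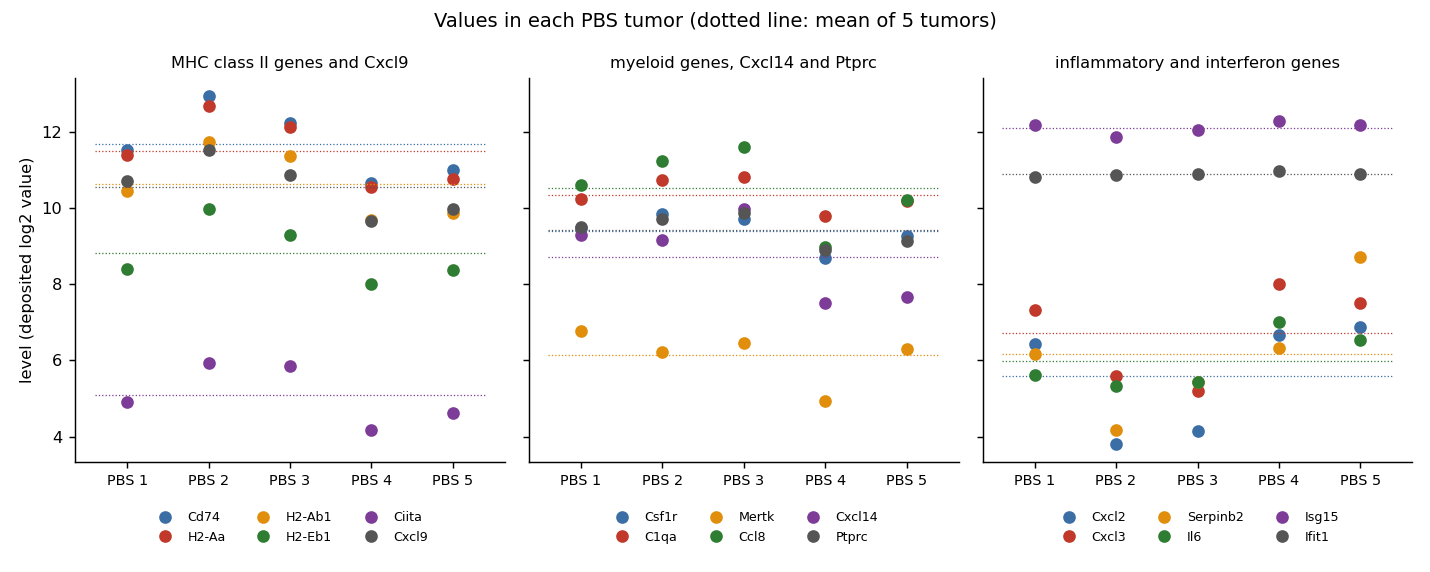
Deposited log2 value in each PBS tumor (horizontal axis, PBS 1 to PBS 5) of 18 genes in 3 panels, with a dotted line at the mean of each gene over the 5 tumors. Class II genes and Cxcl9 are highest in PBS 2 and lowest in PBS 4, Csf1r, C1qa, Mertk, Ccl8, Cxcl14 and Ptprc are lowest in PBS 4, and Cxcl2 and Cxcl3 are low in PBS 2 and PBS 3.

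Whether the genes of 15 listed pairs varied together was tested in the 6 hetIL-15 tumors, with both Pearson's r and Spearman's rho. Exact two-sided permutation tests over 720 orders were used, with Benjamini-Hochberg adjustment over the 30 tests. The smallest p that 6 tumors allow is 0.00139. The pairs were genes of 1 cell type or a ligand with its receptor, whether or not they varied together over the PBS tumors. Of the 10 pairs of PBS tumors, 0 were ordered alike by Csf1 with Csf1r and 10 by H2-Aa with H2-Ab1. Of the 15 gene pairs, 2 passed, both of 1 cell type. H2-Aa and H2-Ab1 had r = 0.99 (exact permutation p = 0.00139, adjusted p = 0.0278) and rho = 1.00 (exact permutation p = 0.00278, adjusted p = 0.0278), and r = 0.99 without the 2 tumors farthest from the median of H2-Aa. Csf1r and C1qa had r = 0.91 (exact permutation p = 0.00278, adjusted p = 0.0278) and rho = 0.99 (exact permutation p = 0.00556, adjusted p = 0.0417), and r = 0.84 without the 2 farthest tumors. In the PBS tumors the first pair had 1 order, and both genes of the second were lowest in PBS 4.

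No ligand and receptor pair passed. Ccl2 and Ccr2 had r = 0.58 (exact permutation p = 0.3, adjusted p = 0.643) and rho = 0.74 (exact permutation p = 0.133, adjusted p = 0.454), and r = 0.99 without the 2 tumors farthest from the median of Ccl2. Csf1 and Csf1r, which had opposite extremes over the PBS tumors, had r = 0.39 (exact permutation p = 0.411, adjusted p = 0.725) and rho = 0.26 (exact permutation p = 0.622, adjusted p = 0.844), and r = -0.54 without the 2 farthest tumors, so the sign rested on those. Vegfa and Kdr, which shared their extremes over the PBS tumors, had r = -0.42 (exact permutation p = 0.407, adjusted p = 0.725) and rho = -0.14 (exact permutation p = 0.803, adjusted p = 0.926), and r = -0.86 without the 2 farthest tumors. Cd274 and Pdcd1, both lowest in PBS 5, had r = 0.52 (exact permutation p = 0.281, adjusted p = 0.643) and rho = 0.29 (exact permutation p = 0.55, adjusted p = 0.786), and r = -0.64 without the 2 farthest tumors. Over the 13 pairs that did not pass, the highest r was 0.71 for Cd3d with Cd3e, and the adjusted p of r ran between 0.454 and 0.939 (exact permutation). Among them, Cd8a with Cd8b1 and S100a8 with Cxcr2 were each ordered alike in 9 of 10 pairs of PBS tumors. In the hetIL-15 tumors, Cd8a with Cd8b1 had r = -0.39 (exact permutation p = 0.464, adjusted p = 0.767). S100a8 with Cxcr2 had r = -0.14 (exact permutation p = 0.785, adjusted p = 0.926). With 6 tumors, a p above the threshold does not show that the genes of a pair vary independently. Spp1 with Cd44 could not be tested, since Spp1 had 1 fixed value.

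The spread itself was compared between the arms by limma on the absolute deviation of each tumor from its group mean, as PBS minus hetIL-15. The median SD was 0.31 in PBS tumors and 0.33 in hetIL-15 tumors. At an adjusted p under 0.05 (limma, Benjamini-Hochberg), 2 of 758 genes (0.264%) were wider in PBS tumors and 1 (0.132%) was narrower, and at an unadjusted p under 0.05 the counts were 35 and 39. Cd36, a scavenger receptor for lipids and thrombospondin, had 8.88, 8.29, 8.50, 8.76 and 8.82 in PBS tumors, against 8.88, 7.63, 9.04, 7.79, 7.76 and 9.13 in hetIL-15 tumors. The PBS tumors lay within the range of the hetIL-15 tumors, and the mean deviation differed by -0.48 (95% interval -0.63 to -0.33, limma adjusted p = 0.0106). Klra15 had 3.79, 3.80, 1.79, 1.92 and 1.92 in PBS tumors, against 2.88, 2.73, 3.31, 3.34, 2.88 and 2.96 in hetIL-15 tumors, a difference of 0.81 (0.57 to 1.05, limma adjusted p = 0.0106). Cd6, a T cell receptor for adhesion, had 5.34, 5.22, 3.75, 3.75 and 5.93 in PBS tumors, against 4.98, 5.21, 5.19, 5.07, 4.88 and 5.05 in hetIL-15 tumors, a difference of 0.83 (0.51 to 1.16, limma adjusted p = 0.0366). Klra15 and Cd6 were near the floor, where a few coarse steps make up the spread, and none of the 3 calls held with deviations from the group median (lowest adjusted p of any gene 0.329, limma), with squared deviations or with a trended and robust prior. In simulated tables of the same size, genes whose SD differed 4-fold between the arms were called in 16.45% of cases, so most such differences would be missed with 5 and 6 tumors.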

How the data were processed

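The values were made by the authors, who filtered the nCounter probe counts, took log2 and applied quantile normalization across the 11 tumors, and the deposited log2 values of 758 genes were used as given. The deposited annotation of probe class, name and accession (780 panel genes) gave the 20 housekeeping genes, and 736 genes matched a RefSeq symbol by accession. The same table holds 11 columns of counts whose names match no tumor label, and these were not used, so the depth of each tumor is unknown and only the number of tumors sets the precision. Genes were ranked by their mean over 5 PBS tumors. Genes named are the 20 highest and 10 lowest means, the 15 largest and 10 smallest SDs above the lowest 25%, members of the gene lists and pairs, the housekeeping genes and the 5 smallest p of the spread comparison, and other genes were named after their values were seen. A few genes that meet these rules are not reported here. The members and lists were chosen with earlier results of these data known. Spread was compared with limma 3.58.1 in R 4.3.3 over all genes, and was tested on simulated data with 200 changed genes in each of 10 tables. Correlations used exact permutations in Python 3.11.15. The alternatives were a shift of each tumor to an equal housekeeping mean, leaving out tumors or genes near the floor, medians, other limma settings and the replicate number as a block.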

Additional observations from a re-analysis of the deposited data

Results flagged for a closer look

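Of 64 sets of values checked for a tumor far from the others, 1 was marked, and chance marks about 1 in 20 such sets. It was Cd274 in the PBS tumors, where PBS 5 (9.69) lay below the other 4 (10.21 to 10.38), and the gap made up 0.758 of the range, above the critical value of 0.71 for 5 samples. The spread between tumors differed between the arms, by the limma test of that difference, for Cd36 (-0.48, narrower in PBS tumors), Klra15 (0.81, wider in PBS tumors) and Cd6 (0.83, wider in PBS tumors), as mean absolute deviations in log2 units, PBS minus hetIL-15. None of these calls held with deviations from the group median, squared deviations or a trended and robust prior, so they are uncertain.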

How the results depend on the processing

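The level ranking kept its 20 highest genes whichever PBS tumor was left out, and 185 to 188 of the 190 genes near the floor. Without the genes near the floor, 6 genes had an SD of at least 1 and 119 a range of at least 2-fold. With the limit at the lowest 25% in place of the median gene, 61 pairs had both genes above it and 8 neither. With equal housekeeping means, 14 interferon gamma response genes were alone highest in PBS 2 (39.2% of all genes), and 4 type I interferon genes were alone highest in PBS 4 (15% of all genes) and 5 alone lowest in PBS 2 (12.8% of all genes). The cause was not tested. The other 6 counts of class II, class I, NK cell, macrophage and complement genes alone highest or lowest stayed within 1.5 times under each alternative. With equal housekeeping means, however, the shares of all genes rose, from 21.0% to 39.2% (highest in PBS 2) and from 21.5% to 34% (lowest in PBS 4). Beside these shares stood 15 of 25 NK cell and 12 of 13 class I genes (highest in PBS 2) and 18 of 27 complement genes (lowest in PBS 4). The spread comparison called 3 genes, 0 with the group median, 0 with squared deviations, 0 with a trended and robust prior and 1 without genes near the floor, and between 1 and 6 genes when 1 tumor was left out (6 without PBS 5, and 1 without hetIL-15 tumor 1, 2, 3, 4 or 6). With the replicate number as a block it called 0 genes, but the numbers only name the tumors: same-numbered tumors deviated together with r between -0.05 and 0.13 over genes, and 1 of 5 PBS tumors resembled its own number best. With equal housekeeping means both correlated pairs kept an adjusted p of r under 0.05, but the rho of H2-Aa with H2-Ab1 (0.94) did not pass (exact permutation, adjusted p = 0.133).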

Other observations

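Immunosuppressive enzymes and innate sensors, picked after their values were seen, lay on both sides of the median gene (7.65). The prostaglandin synthase gene Ptgs2 averaged 11.02 ± 0.36 over the 5 PBS tumors (SD) and the arginase gene Arg1, which depletes arginine, 9.13 ± 0.66, with 9.65, 8.86, 8.28, 8.93 and 9.93 in PBS 1 to PBS 5. The adenosine-forming ectoenzyme genes Entpd1 and Nt5e averaged 7.96 ± 0.21 and 6.59 ± 0.29, and the tryptophan-degrading Ido1 6.81 ± 0.59, so Nt5e and Ido1 were below the median gene. The lipoprotein gene Apoe, made by macrophages, averaged 12.17 ± 0.54 and was highest in PBS 2 and lowest in PBS 4. Among innate sensing genes, Casp1 averaged 11.09 ± 0.11, the adaptor Myd88 9.43 ± 0.06 and the adaptor Mavs 9.31 ± 0.23, whereas the inflammasome adaptor Pycard lay near the floor (4.34 ± 0.74).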
